A study of Mus musculus with 6 samples.

Results

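The 9 genes described here encode, or are made with, secretory products of airway club and goblet cells, and they were followed through the lungs of mice given extracellular vesicles (EVs) from wild-type or Tsc1-null cells. They are the secretoglobins Scgb1a1, Scgb3a1 and Scgb3a2, the BPI-fold proteins Bpifa1 and Bpifb1, the mucin Muc5b, the lectin Reg3g, the resistin-like protein Retnla and the carbonyl reductase Cbr2. Members were taken by gene symbol from the deposited table, where all 9 were found among 24054 gene rows. All 9 passed the filter on low values (a mean of at least 1 over the 6 libraries) and were among the 14159 genes tested.

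Club cells are the main secretory cells of mouse bronchioles. They release secretoglobins, small proteins that form dimers and occur at high concentration in airway lining fluid, and they carry enzymes that metabolise inhaled compounds. Goblet cells, few in unchallenged mouse lung, store gel-forming mucins. BPI-fold proteins, mucins and lectins of the Reg3 family serve mucosal defence. Within the airways, BPI-fold proteins and mucins are made mostly in the upper and larger ones, whereas Scgb3a2 and Cbr2 are typical of club cells further down. Retnla (RELM-alpha, FIZZ1) is made by airway epithelium, macrophages and fat, and is a classical target of interleukins 4 and 13.

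Both groups were female SCID mice, which lack mature B and T cells but keep innate immune cells; their age is not given in the sources used here. Each mouse received EVs positive for CD9, CD63 and CD81 by tail vein. The EVs, which carried a label, came from cultured E15.5 neural progenitors, either wild type (WT EV, n = 3) or lacking Tsc1 (Tsc1-null EV, n = 3), a subunit of the complex that restrains mTORC1. After 48 h every mouse was given 500000 ELT3 cells by vein, a rat line that models lymphangioleiomyomatosis, and lungs were taken 72 h later. The labels do not say how many embryos or EV preparations stood behind a group, and no lung without EVs or without ELT3 cells was analysed here. The design asks whether the genotype of the EV donor cells shows in the lung. In whole lung RNA, fewer cells of a type and less RNA per cell cannot be told apart.

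Libraries held 5101413 to 9358820 reads assigned to genes. The surfactant gene Sftpc, which defines alveolar type 2 cells, was the second most abundant gene in 5 libraries and the noncoding RNA Malat1 was second in the other, Tsc1-null EV replicate 1. That library and WT EV replicate 2 stood apart: their median correlations with the other libraries across genes were 0.942 and 0.963, against 0.980 to 0.982 for the other 4, and Malat1 stood at 30060 and 15673 against 1609 to 2819. Values below are normalized CPM, reads of a gene scaled to the size of its library, as deposited. Changes are log2 folds of CPM + 1, Tsc1-null EV over WT EV, with the standard error of limma, and results are also given without these 2 libraries.

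None of the 9 genes passed the test between the groups. Limma called 0 of 9 members, edgeR 0 and DESeq2 0, and over all genes the called shares were 0.0% by limma, 0.0% by edgeR and 0.0707% by DESeq2 (0.045% higher with Tsc1-null EV and 0.0257% lower). At an unadjusted p under 0.05 the members were 1 by limma, where 6.57% of all tested genes passed, 2 by edgeR (6.93% of all) and 3 by DESeq2 (6.13% of all). The fit with a weight estimated for each sample called 1 member, Retnla, and 7.42% of all tested genes. For 2 of 9 members, Retnla and Cbr2, every Tsc1-null EV value exceeded every WT EV value, where 6.86% of all tested genes were higher in all 3 and 13.1% did not overlap in either direction. No member was lower in all 3, as 6.22% of tested genes were. The log2 fold was above 0 for 6 members and below 0 for 3, with a median of 0.16, against 47.3% of all tested genes above 0 and a median of -0.02.

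**Figure D1:**
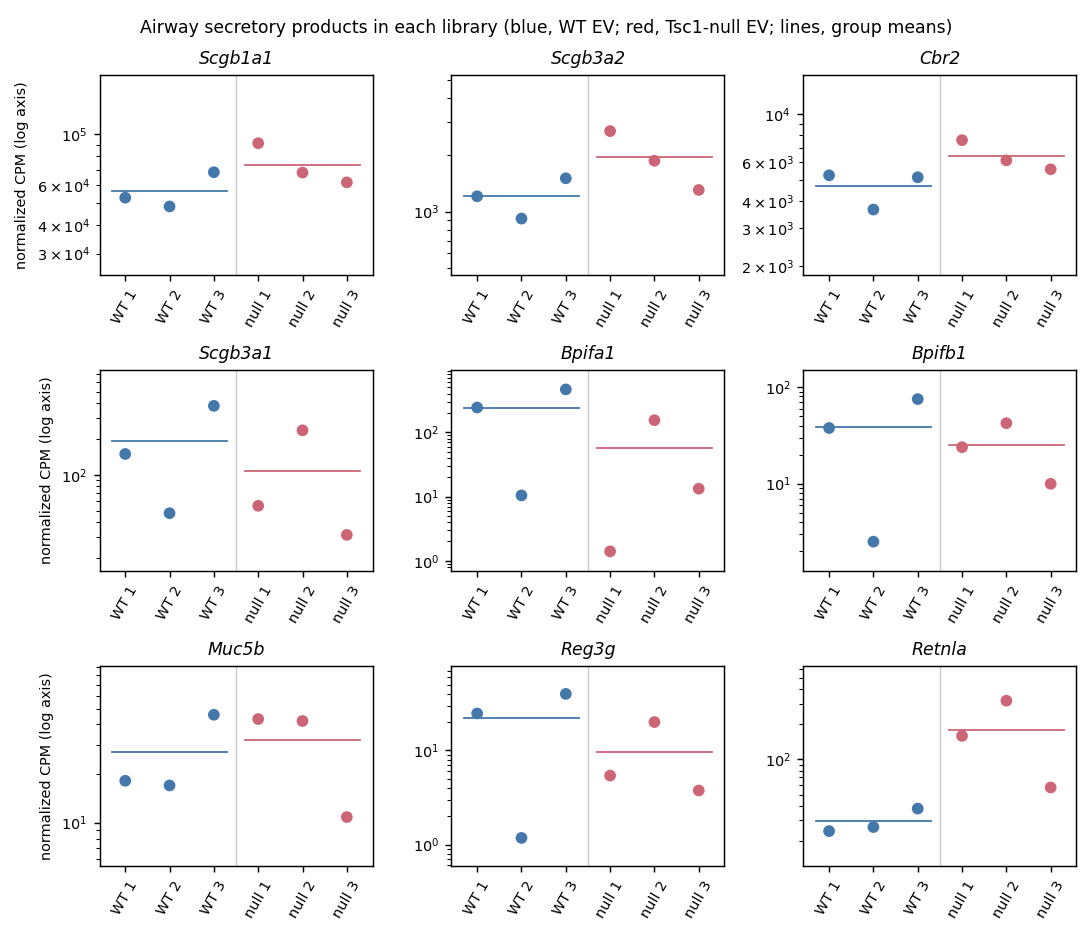
Normalized CPM (log axis) of each of the 9 genes in the 6 libraries, blue for WT EV and red for Tsc1-null EV (null), with lines at the group means. Retnla and Cbr2 do not overlap between the groups, while Scgb3a1, Bpifa1, Bpifb1 and Reg3g spread over 12.2 to 331.8 fold with high and low libraries in both groups.

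Scgb1a1, which encodes the club cell secretory protein (CC10), was the most abundant gene in every library. It stood at 52772, 48294 and 68246 CPM in the WT EV lungs and at 91441, 67980 and 61601 in the Tsc1-null EV lungs. The highest value was in Tsc1-null EV replicate 1, and the groups overlapped because WT EV replicate 3 lay above Tsc1-null EV replicates 2 and 3. The gene spans chr19:9083636-9087958 (minus strand, mm10, GENCODE M21), in 3 exons, and its single annotated transcript shares no 50-base word with another gene. The group means were 56437 ± 10469 and 73674 ± 15714 (SD, n = 3 each). The log2 fold was 0.38 ± 0.65 (limma adjusted p = 0.936), and 0.11 without the 2 libraries that stood apart. In this fit the standard error follows a trend with abundance, and from the gene's own replicates alone it would be 0.23.

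Expressed as a share of all reads assigned to genes, Scgb1a1 held 5.26%, 5.00% and 6.85% of the WT EV libraries. In the Tsc1-null EV libraries it held 8.94%, 6.74% and 6.13%. At this depth the counting error is small: the widest 95% Wilson interval, for Tsc1-null EV replicate 1, ran from 8.92% to 8.97%, which is far narrower than the spread between lungs. Such intervals cover counting error only. The mean shares were 5.70% ± 0.997 and 7.27% ± 1.48 (SD, n = 3 each), a difference of 1.57 percentage points (two-sided exact permutation p = 0.3, where 3 against 3 cannot go below 0.1). The difference was 0.73 points without Tsc1-null EV replicate 1 and 0.38 points without both libraries that stood apart (exact permutation p = 1.0). All 9 genes together held 5.95%, 5.49% and 7.62% of the WT EV libraries and 9.97%, 7.61% and 6.83% of the Tsc1-null EV libraries. Scgb1a1 contributed 88.4% to 91.2% of those reads in every lung, so the share of the whole set followed this 1 gene.

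**Figure D2:**
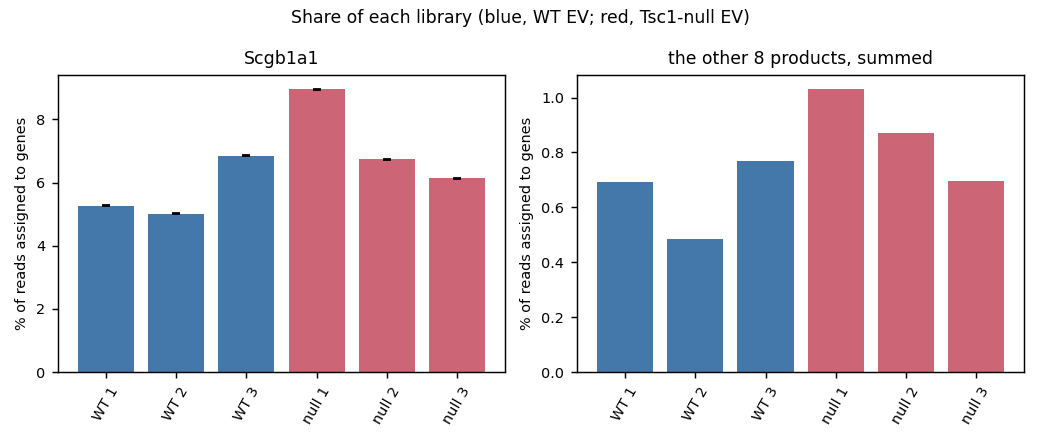
Share of the reads assigned to genes held by Scgb1a1 (left, with 95% Wilson intervals) and by the other 8 genes summed (right), in percent, for each library. Scgb1a1 runs from 5.00% to 8.94% and the other 8 from 0.484% to 1.032%, and the groups overlap in both panels.

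Scgb3a2 and Cbr2, the other products typical of club cells, were like Scgb1a1 lowest in WT EV replicate 2 and highest in Tsc1-null EV replicate 1. The order between these differed. WT EV replicate 3 lay above Tsc1-null EV replicates 2 and 3 for Scgb1a1, above replicate 3 only for Scgb3a2, and below both for Cbr2. Scgb3a2, a secretoglobin of small airways on chromosome 18, stood at 1206, 918 and 1504 CPM with WT EV and at 2682, 1864 and 1304 with Tsc1-null EV. The lowest Tsc1-null EV value lay under the highest WT EV value, so the groups overlapped. Its log2 fold was 0.66 ± 0.31 (limma adjusted p = 0.721), and 0.21 without the 2 libraries that stood apart. Cbr2, a reductase of carbonyl compounds that is abundant in lung, stood at 5231, 3644 and 5124 CPM with WT EV and at 7584, 6126 and 5574 with Tsc1-null EV. Every Tsc1-null EV lung lay above every WT EV lung, by a margin of 5574 over 5231 at the closest. Its log2 fold was 0.47 ± 0.30 (limma adjusted p = 0.766), and 0.17 without both libraries; after quantile normalization the groups overlapped. Cbr2 spans chr11:120729489-120732114 (minus strand) in 8 exons, and 12.1% of its 50-base words also occur in Gm11771, so a part of its reads could belong to either gene.

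The ratio between these products varied less than their levels. Per 1000 Scgb1a1 reads there were 22.9, 19.0 and 22.04 Scgb3a2 reads in the WT EV lungs and 29.3, 27.4 and 21.2 in the Tsc1-null EV lungs. For Cbr2 the values were 99.1, 75.5 and 75.1 against 82.9, 90.1 and 90.5. Both ratios overlapped between the groups, and that of Cbr2 no longer separated them. As a measure of likeness the root mean square difference between log2 profiles, each centred on its own mean over the 6 libraries, was 0.15 between Scgb1a1 and Cbr2 and 0.22 between Scgb1a1 and Scgb3a2. Between Scgb1a1 and Bpifa1 it was 2.84. Among 11238 other genes with a mean of at least 5 CPM, those most like Scgb1a1 were Cntrob, a centriolar protein (0.06), Cbr3, another carbonyl reductase (0.06), and Cmtm8 (0.07).

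Per kilobase of the longest coding transcript, the 9 genes spanned several orders of magnitude. The medians over the 6 libraries were 136115 CPM per kb for Scgb1a1, 4867 for Cbr2 and 1667 for Scgb3a2. For each of these 3 the lowest library exceeded the highest library of the next gene. Scgb3a1 followed at 171 CPM per kb, Retnla at 79.6, Bpifa1 at 75.8, Bpifb1 at 18.1, Reg3g at 16.5 and Muc5b at 2.0. From Scgb3a1 downwards each gene's range over the libraries overlapped that of its neighbours, and of those neighbours Reg3g exceeded Muc5b in all 6 libraries, Bpifa1 exceeded Bpifb1 in 5, Retnla exceeded Bpifa1 in 4, Scgb3a1 exceeded Retnla in 3 and Bpifb1 exceeded Reg3g in 2. These orders were not tested. The transcript of Scgb1a1 is 476 bases and that of Muc5b 14964 bases, and for transcripts near the length of a fragment the level per kb is approximate.

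**Figure D3:**
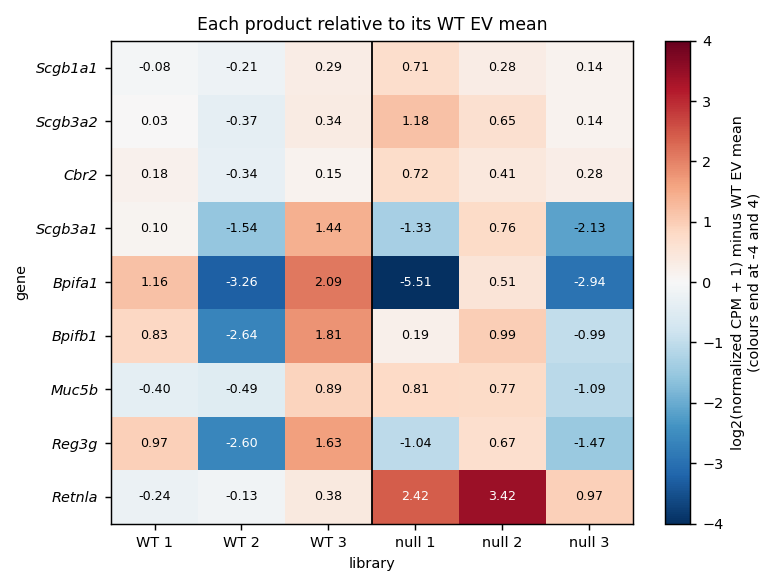
Log2(CPM + 1) of each gene minus its mean in the 3 WT EV libraries, with columns for the 6 libraries and the value printed in each cell. Scgb1a1, Scgb3a2 and Cbr2 stay within -0.37 and 1.18, Scgb3a1, Bpifa1, Bpifb1 and Reg3g are high in WT EV replicate 3 and low in WT EV replicate 2, and Retnla is above 0 in all 3 Tsc1-null EV libraries.

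Scgb3a1, Bpifa1, Bpifb1 and Reg3g varied widely between mice of the same group. Their pooled within-group SDs on the log2 scale were 1.49, 2.94, 1.80 and 1.80. The log2 folds between the groups were -0.90, -2.65, 0.06 and -0.61, so for Bpifa1 the 2 were of similar size. The promoters of these 4 genes are shown because the same 3 libraries were the highest for each of them. They are from RefSeq (GRCm38.p6), 250 bases before to 50 after the start, 5′ to 3′ on the gene's strand. Capitals mark the words searched on both strands: TGTTTAC and TGTTTGC for FOXA factors, CAAGTG for NKX2-1, TTGCNNAA for C/EBP, TTC and GAA with 4 bases between them for STAT6 and TATAAA for the TATA box. The STAT6 and TATA words were added after the values were seen. The windows are chr11:49663345-49663644 (plus strand) for Scgb3a1, chr2:154142630-154142929 (plus) for Bpifa1, chr2:154190568-154190867 (plus, 1 of 2 windows listed) for Bpifb1 and chr6:78468825-78469124 (minus) for Reg3g.
Scgb3a1: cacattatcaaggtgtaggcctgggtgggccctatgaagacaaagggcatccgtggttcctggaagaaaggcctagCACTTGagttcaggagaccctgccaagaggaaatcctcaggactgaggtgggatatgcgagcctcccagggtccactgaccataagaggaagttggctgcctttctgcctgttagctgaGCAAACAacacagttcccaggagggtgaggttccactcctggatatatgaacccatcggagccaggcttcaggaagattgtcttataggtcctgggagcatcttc
Bpifa1: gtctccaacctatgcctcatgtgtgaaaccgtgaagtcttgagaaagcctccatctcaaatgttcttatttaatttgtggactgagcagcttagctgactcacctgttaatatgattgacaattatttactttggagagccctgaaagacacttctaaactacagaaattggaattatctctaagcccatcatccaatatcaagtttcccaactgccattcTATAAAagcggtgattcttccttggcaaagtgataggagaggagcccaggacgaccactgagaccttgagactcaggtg
Bpifb1: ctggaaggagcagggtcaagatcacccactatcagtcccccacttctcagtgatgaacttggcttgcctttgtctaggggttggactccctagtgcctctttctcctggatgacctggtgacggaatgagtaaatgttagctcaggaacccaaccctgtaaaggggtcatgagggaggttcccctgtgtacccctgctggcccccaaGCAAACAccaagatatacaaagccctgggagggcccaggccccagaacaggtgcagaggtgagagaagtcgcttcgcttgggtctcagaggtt
Reg3g: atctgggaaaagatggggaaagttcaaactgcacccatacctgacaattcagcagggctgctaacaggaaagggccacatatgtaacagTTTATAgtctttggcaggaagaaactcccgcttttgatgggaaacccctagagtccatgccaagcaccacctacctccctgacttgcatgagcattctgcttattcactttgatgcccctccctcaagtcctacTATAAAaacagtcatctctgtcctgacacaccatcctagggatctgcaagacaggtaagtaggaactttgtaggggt

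Scgb3a1 held the FOXA word TGTTTGC in reverse from 55 bases upstream of its start and the NKX2-1 word in reverse from 174 bases upstream. Bpifb1 held TGTTTGC in reverse from 43 bases upstream in the window shown, and its other window held none of the words searched. TGTTTGC occurs in 5.07% of the 32851 promoter windows listed, TGTTTAC in 3.65% and the NKX2-1 word in 13.6%. Bpifa1 and Reg3g held a TATA word from 29 and 27 bases upstream, and Reg3g held another in reverse from 161 bases upstream. Of all windows 13.6% hold one on either strand somewhere in the window. Neither Bpifa1 nor Reg3g held any of the other words. A match describes the letters only, and binding was not measured.

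Scgb3a1, a secretoglobin of the larger airways, stood at 149.9, 47.6 and 380.6 CPM with WT EV and at 54.9, 237.0 and 31.3 with Tsc1-null EV. WT EV replicates 1 and 3 and Tsc1-null EV replicate 2 were high and the other 3 lungs low, so both groups held high and low lungs. The gene spans chr11:49663610-49665118 (plus strand) in 4 exons. Its log2 fold was -0.90 ± 0.84 (limma adjusted p = 0.843), and -1.45 without the 2 libraries that stood apart. With 1 library left out it ranged from -1.73 (Tsc1-null EV replicate 2) and -1.67 (WT EV replicate 2) to -0.29 (Tsc1-null EV replicate 3) and -0.18 (WT EV replicate 3).

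Bpifa1 (SPLUNC1), a surface-active defence protein of airway lining fluid, ran from 1.40 to 465.6 CPM, the widest range of the 9. It stood at 243.2, 10.4 and 465.6 with WT EV and at 1.40, 154.4 and 13.3 with Tsc1-null EV. The same 3 lungs as for Scgb3a1 were high, and the lowest value rested on 7 reads. The gene spans chr2:154142880-154149219 (plus strand) in 9 exons. Its log2 fold was -2.65 ± 1.64 (limma adjusted p = 0.761), and -2.84 without the 2 libraries that stood apart. With 1 library left out it moved from -4.27 when WT EV replicate 2 was left out, and -4.22 for Tsc1-null EV replicate 2, to -1.60 when WT EV replicate 3 was left out, and -1.21 for Tsc1-null EV replicate 1.

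Bpifb1 (LPLUNC1), a longer relative of Bpifa1 in the same gene cluster, spans chr2:154190818-154220369 (plus strand) in 16 exons. It stood at 37.7, 2.499 and 75.1 CPM with WT EV and at 23.9, 42.3 and 9.94 with Tsc1-null EV. WT EV replicate 2 was again low, on 17 reads. The log2 fold of 0.06 ± 1.0 (limma adjusted p = 0.997) was opposite in sign to that of edgeR, which gave -0.60, and to the -1.32 found without the 2 libraries that stood apart. Reg3g, a secreted lectin that acts against Gram-positive bacteria, spans chr6:78466269-78468872 (minus strand). It stood at 24.8, 1.18 and 40.0 CPM with WT EV and at 5.41, 20.1 and 3.76 with Tsc1-null EV, the lowest on 8 reads. Its log2 fold was -0.61 ± 1.02 (limma adjusted p = 0.933), and -1.70 without those 2 libraries. Bpifb1 and Reg3g followed each other with a root mean square difference of 0.45 on the log2 scale, the smallest among these 4 genes. The largest was 2.08, between Bpifa1 and Bpifb1.

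Of the 8 members with a mean of at least 20 CPM, 4 had a highest library at least 10 times the lowest (Scgb3a1, Bpifa1, Bpifb1 and Retnla), where 0.435% of the 7814 tested genes at that level did. This threshold was chosen after the values were seen. The lactoferrin gene Ltf, also chosen after its values were seen and a product of airway glands and neutrophils, stood at 100.02, 4.26 and 83.3 CPM with WT EV and at 39.1, 156.8 and 14.6 with Tsc1-null EV. It was thus high in the same 3 lungs as Bpifa1. The genes most like Bpifa1 by the same measure were Nppa, the atrial natriuretic peptide of the heart (1.28), Cfd, adipsin (1.43), and Fabp4, a lipid carrier of fat cells (1.51).

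Of the marker lists for tissue around the airways, adipocyte markers were high in the same lungs as these 4 genes and cartilage markers were not. For basal cell markers this depended on the measure. The summed level of 12 adipocyte markers was 298.3, 96.9 and 683.1 CPM with WT EV and 73.2, 265.9 and 128.7 with Tsc1-null EV, with the same 3 lungs on top; 11 of the 12 were tested, 2 above 0 and 9 below. Cartilage markers of trachea and bronchi summed to 2.54 to 4.53 CPM over the 11 found (1 tested, below 0), with Acan and Col2a1 at most at 0.323 and 0.617. Their sum was highest in Tsc1-null EV replicate 2 and WT EV replicate 2. Krt5, a marker of the basal cells that line large airways, stood at 5.61, 1.18 and 2.47 CPM with WT EV and at 1.0, 0.97 and 0.11 with Tsc1-null EV. It was lower in all 3 (log2 fold -1.17 ± 0.44, limma adjusted p = 0.721), by 1.0 against 1.18 at the closest. These levels are low, and 0.11 lies below the 0.331 CPM that 3 reads represent in Tsc1-null EV replicate 3. The part of adipose tissue in the levels of the 4 products was not tested.

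**Figure D4:**
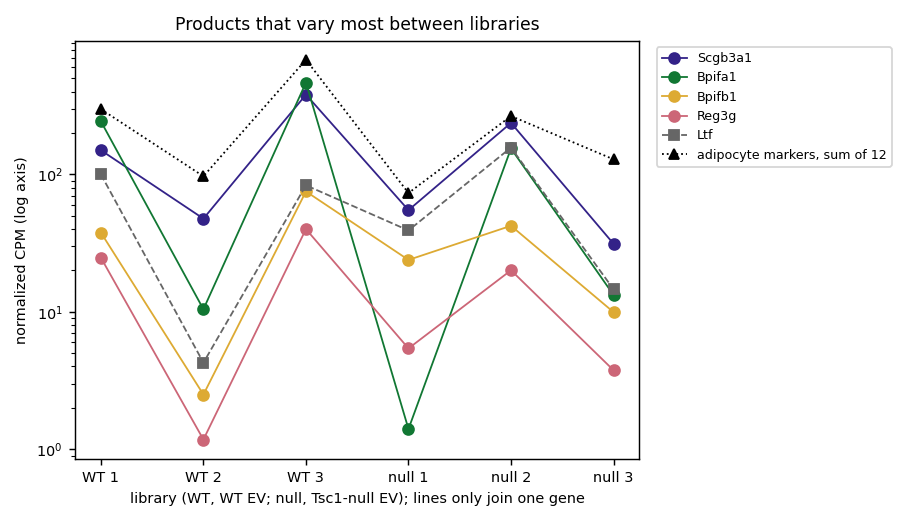
Normalized CPM (log axis) of Scgb3a1, Bpifa1, Bpifb1, Reg3g and Ltf and the sum of 12 adipocyte markers in the 6 libraries; lines join the values of 1 gene or list only. WT EV replicates 1 and 3 and Tsc1-null EV replicate 2 are the 3 highest libraries for all of them.

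Muc5b, the gel-forming mucin that is the main one of mouse airways at rest, followed another order. It stood at 18.1, 16.9 and 45.8 CPM with WT EV and at 43.1, 41.9 and 10.8 with Tsc1-null EV. WT EV replicate 3 and Tsc1-null EV replicates 1 and 2 were high, and the groups overlapped. The gene spans chr7:141839070-141873084 (plus strand) in 49 exons. Its log2 fold was 0.16 ± 0.54 (limma adjusted p = 0.969) and its sign changed when single libraries were left out. Muc5ac, the mucin that goblet cells make on challenge, was near the detection limit at 0.488, 0.588 and 0.617 CPM with WT EV and at 2.41, 1.73 and 0.552 with Tsc1-null EV. Of 15 goblet cell genes 10 were tested, 8 above 0 and 2 below, 0 passing, with a median log2 fold of 0.35 that was -0.13 without the 2 libraries that stood apart and 0.78 without Tsc1-null EV replicate 3. Spdef, the factor that drives goblet cell fate, stood at 1.79 ± 0.60 and 3.30 ± 0.672 CPM (SD, n = 3 each), higher in all 3. Pigr, which carries immunoglobulin A across epithelia, stood at 195.3, 143.9 and 197.8 with WT EV and at 720.9, 335.3 and 199.0 with Tsc1-null EV, also higher in all 3 but by a narrow margin in replicate 3.

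Retnla had the highest log2 fold and the smallest p of the 9 genes; the fold of Bpifa1 was larger in size, in the other direction, but overlapped between the groups. It stood at 24.3, 26.3 and 37.9 CPM with WT EV and at 159.2, 318.9 and 57.4 with Tsc1-null EV. All 3 Tsc1-null EV lungs lay above all WT EV lungs, but they differed among themselves, with Tsc1-null EV replicate 2 the highest and replicate 3 the lowest. The means were 29.5 ± 7.34 and 178.5 ± 131.8 (SD, n = 3 each), 6.05 times as high with Tsc1-null EV. The log2 fold was 2.27 ± 0.52 (limma adjusted p = 0.721), which ranked 4 among 11695 tested genes with a mean of at least 5 CPM; a log2 fold of at least 2 in either direction was found for 0.0706% of all tested genes. The gene ranked 26 among 14159 by unadjusted p (0.00201), and limma called none.

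For Retnla every Tsc1-null EV value lay above every WT EV value, so leaving libraries out could not reverse the direction of the difference. Over the 19 alternative analyses the log2 fold of Retnla ran from 1.69 without Tsc1-null EV replicate 2 to 2.92 without Tsc1-null EV replicate 3. Without the 2 libraries that stood apart it was 2.13 (limma adjusted p = 0.168). DESeq2 gave 2.60 (adjusted p = 0.105) and edgeR 2.60 (adjusted p = 0.712). Of the analyses run, the fit with a weight for each sample called it, at 2.75 (limma adjusted p = 0.0100). That fit called 4.12% of all tested genes higher and 3.3% lower, and it gave weights of 4.19 to WT EV replicate 3 and 3.95 to Tsc1-null EV replicate 2, the lung with the highest Retnla, against 0.213 to 0.933 for the others. Retnla also stood apart relative to Scgb1a1, at 0.46, 0.545 and 0.555 reads per 1000 Scgb1a1 reads with WT EV and 1.74, 4.69 and 0.933 with Tsc1-null EV.

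Retnla spans chr16:48842551-48844461 (plus strand) in 4 exons and shares no 50-base word with another gene. Its promoter, chr16:48842359-48842658 (plus strand, RefSeq, GRCm38.p6), is shown because a STAT6 and a C/EBP word lie close together in it, with the same words in capitals as above.
Retnla: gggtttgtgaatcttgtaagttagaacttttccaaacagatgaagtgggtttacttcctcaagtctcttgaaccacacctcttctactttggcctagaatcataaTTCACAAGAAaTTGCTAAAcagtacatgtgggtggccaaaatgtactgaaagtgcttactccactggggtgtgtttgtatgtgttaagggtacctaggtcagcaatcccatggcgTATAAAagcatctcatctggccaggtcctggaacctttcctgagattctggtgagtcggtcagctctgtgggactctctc

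The STAT6 word, as TTCACAAGAA, starts 145 bases upstream of the Retnla start, the C/EBP word, as TTGCTAAA, 134 bases upstream, and a TATA word 30 bases upstream. The STAT6 word occurs in 6.95% of all promoter windows listed and the C/EBP word in 10.8%. Of the other members whose window was searched, Cbr2 held the STAT6 word, 24 bases past its start, and none held the C/EBP word.

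Limma called no gene of the type 2 cytokine pathway, which acts on Retnla, and 0.0% of all 14159 tested genes. The ligands Il4, Il5 and Il13 stood at no more than 0.122, 0.331 and 0.147 CPM in any library, at or below the 0.323 to 0.601 CPM that 3 reads represent. Il33, the epithelial alarmin of this pathway, stood at 62.9, 69.5 and 46.4 CPM with WT EV and at 36.5, 84.6 and 52.3 with Tsc1-null EV. Stat6, which transmits the signal, stood at 114.1 ± 4.88 and 97.4 ± 13.3 (SD, n = 3 each), lower in all 3 (log2 fold -0.23 ± 0.15, limma adjusted p = 0.766). Il13ra1, a receptor chain, stood at 60.6 ± 9.84 and 90.3 ± 25.7 with overlapping lungs. Of the 20 genes listed for the pathway 12 were tested, 3 above 0 and 9 below, 0 passing, with a median of -0.13 that moved to 0.15 when Tsc1-null EV replicate 1 was left out and to 0.03 without both libraries that stood apart. Chil3, which macrophages express together with Retnla after interleukin 4, stood at 32.3, 30.3 and 29.9 CPM with WT EV and at 10.02, 46.7 and 43.6 with Tsc1-null EV. Tsc1-null EV replicates 2 and 3 lay above every WT EV lung and replicate 1, a library that stood apart, below them. Arg1, another gene of that response, stood at 1.35 ± 0.62 and 1.38 ± 0.257 (SD, n = 3 each). The summed level of 12 macrophage markers was 501.6 to 748.5 CPM with WT EV and 379.1 to 673.5 with Tsc1-null EV, so it overlapped (5 above 0, 7 below). Car4, the most abundant of these markers, made up a large part of that sum, at 154.2 to 357.3 CPM over the 6 libraries. The median log2 fold of the macrophage markers was -0.05, and 0.42 without Tsc1-null EV replicate 1 and 0.38 without both libraries that stood apart. It was 0.17 without WT EV replicate 1. The part of this pathway or of macrophages in the level of Retnla was not tested.

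The genes most like Retnla in profile were Slco1a5, an organic anion transporter (0.66), Lcn2, lipocalin 2 (0.74), and Slc5a1, the sodium-glucose transporter SGLT1 (0.77). Lcn2, which withholds iron from bacteria and is made by airway epithelium and neutrophils, stood at 70.4, 37.6 and 63.5 CPM with WT EV and at 159.0, 183.6 and 118.4 with Tsc1-null EV. It did not overlap between the groups and was called by DESeq2 (adjusted p = 0.000493), not by limma (adjusted p = 0.721). In the list of the interleukin 17 and 22 pathway, which induces Lcn2 and Reg3g in epithelia, 13 of 20 genes were tested, 7 above 0 and 6 below, with a median of 0.08. Il17a and Il22 had 0 reads in all 6 libraries, which allows up to 0.323 to 0.601 CPM depending on depth. Of these 2 products Reg3g overlapped between the groups and Lcn2 did not; the difference between them was not tested.

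Relatives of the 9 genes were mostly silent in these lungs. Of 49 rows whose symbols belong to the secretoglobin, BPI-fold, resistin-like and Reg3 families or are Muc5ac, Cbr1 or Cbr3, 33 were 0 in every library and 13 had a mean of at least 1 CPM. Besides the members these were Scgb1c1, Bpifb5, Retnlg, Muc5ac, Cbr1 and Cbr3. Scgb1c1, another secretoglobin, stood at 12.4 ± 1.68 and 17.05 ± 6.16 CPM (SD, n = 3 each) with overlapping lungs. Retnlg, a resistin-like gene of neutrophils and bone marrow, stood at 2.65 ± 0.483 and 4.4 ± 0.581, higher in all 3 (log2 fold 0.57 ± 0.23, limma adjusted p = 0.721). Retnlb, the gut relative of Retnla, and Reg3b, the neighbour of Reg3g, were at 0 in every library. Cbr1 and Cbr3 stood at 53.0 ± 8.33 and 63.4 ± 8.0 and at 9.04 ± 1.56 and 12.2 ± 2.26, with overlapping lungs.

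Other club cell genes were mostly above 0, and limma called none of them, as in the whole table. Of the 17 club cell markers 13 are not members; of these 12 were above 0 and 1 below, with a median log2 fold of 0.52 against -0.02 over all tested genes. Cldn10, Aox3, Upk3a and Por, 4 of the 13, were higher in all 3, where 6.86% of all tested genes were. The median was 0.13 without the 2 libraries that stood apart. Over all 17 markers 15 were above 0 and the median was 0.49. Cyp2f2, the club cell cytochrome that activates naphthalene, stood at 6300, 3226 and 4973 CPM with WT EV and at 10451, 6664 and 5648 with Tsc1-null EV, with 1 WT EV lung above 1 Tsc1-null EV lung. Aox3, an aldehyde oxidase, stood at 98.1, 94.8 and 88.2 with WT EV and at 215.5, 124.3 and 117.9 with Tsc1-null EV, higher in all 3. Of 28 enzymes that metabolise carbonyls, aldehydes and foreign compounds 26 were tested, 22 above 0 and 4 below, 0 passing, with a median of 0.36 that was 0.06 without the 2 libraries. Dcxr, a carbonyl reductase of the same family as Cbr2, stood at 93.8 ± 10.6 and 132.4 ± 24.3 (SD, n = 3 each), higher in all 3.

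Markers of ciliated and of all epithelial cells were also mostly above 0, whereas alveolar type 1 and basal cell markers were mostly below. Ciliated cells, the other main cell of the bronchiolar lining, had a summed marker level of 1232 to 1715 CPM with WT EV and 1732 to 3101 with Tsc1-null EV, and all 16 tested markers were above 0 (median 0.67, and 0.23 without the 2 libraries that stood apart). Pan-epithelial markers summed to 2217 to 3153 and 3229 to 3313 CPM (11 of 13 above 0, median 0.35, and 0.11 without both). Alveolar type 2 markers summed to 27035 to 35864 and 25784 to 49472 CPM (13 of 14 above 0, median 0.44, and 0.51 without both). In Tsc1-null EV replicate 1 the ciliated sum was 3101 CPM while the type 2 sum was 25784, the lowest of the 6 lungs. Alveolar type 1 markers were mostly below 0 (9 of 10, median -0.23, and -0.24 without both). Neuroendocrine markers were above 0 in 4 of 7 tested (median 0.32, and -0.04 without both), gland and serous markers in 4 of 4 tested of 13 listed (median 0.30), and basal markers in 0 of 5 tested (median -0.47, and -0.90 without both). The part of these shifts in the levels of Scgb1a1, Scgb3a2 and Cbr2 was not tested.

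Transcription factors of the airway secretory lineage were tested for 17 of 18 genes, 15 above 0 and 2 below, 0 passing, with a median of 0.35 that was 0.00 without the 2 libraries that stood apart. Nkx2-1, the lung lineage factor that acts on secretoglobin promoters, stood at 286.1, 194.3 and 224.6 CPM with WT EV and at 335.8, 230.6 and 200.4 with Tsc1-null EV, with overlapping lungs. Cebpb, a C/EBP factor, stood at 117.6, 108.8 and 116.1 with WT EV and at 187.8, 160.7 and 175.4 with Tsc1-null EV, higher in all 3 (log2 fold 0.61 ± 0.14, limma adjusted p = 0.721). Elf5 stood at 23.7 ± 3.81 and 35.4 ± 7.08 (SD, n = 3 each), also higher in all 3. Other products of airway fluid and innate defence were above 0 in 15 of 15 tested genes of 18 listed, where 47.3% of all tested genes were. Sftpa1, the most abundant of them, Sftpd, Lyz1 and Chil1 are also in the list of alveolar type 2 markers. That type 2 list had a median of 0.44, and 0.51 without the 2 libraries. Of the 15 defence genes 4 were higher in all 3, where 6.86% of all tested genes were, and 0 passed. Their median was 0.49 (0.45 without the 2 libraries). Chil1, a chitinase-like protein of this list, stood at 477.4 ± 139.4 and 878.0 ± 201.7 CPM. Bpifa1, Bpifb1 and Reg3g, which serve the same defence, were not in that list; their log2 folds were -2.65, 0.06 and -0.61.

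**Figure D5:**
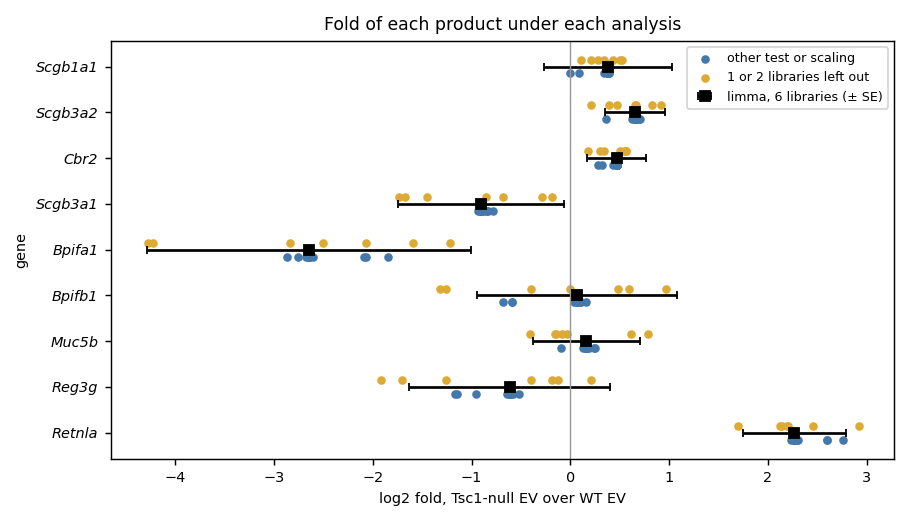
Log2 fold (Tsc1-null EV over WT EV) of each gene from limma on 6 libraries (black squares, ± SE), from other tests and scalings (blue) and with 1 or 2 libraries left out (yellow). Retnla lies between 1.69 and 2.92 in every analysis, Bpifa1 between -4.27 and -1.21, and Bpifb1, Muc5b and Reg3g fall on both sides of 0.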

How the data were processed

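Total RNA from 6 mouse lungs was read in pairs on an Illumina platform, per the labels' protocols. What the authors deposited is 1 table of TMM-normalized signal on a scale near CPM, with column totals of 964931 to 1022663, per the name of that table. Bowtie2 2.1.0, RSEM 1.2.15, edgeR and mm10 come from the submitters' processing notes, which assign them no role. The gene annotation was not given in the sources used here. Any rat reads from ELT3 cells that matched mouse genes would be included.

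Each value was a whole multiple of 1 step per column (100% within 0.002 of a whole number), so reads were recovered. Pairs of libraries within a group gave a chi-square of 8.78 to 55.2 per degree of freedom over 6 pairs, so each was kept as separate. Libraries were grouped by treatment label, and each was taken as 1 mouse; the labels do not say that they were separate animals, so p-values measure the spread between these samples. Genes with a mean of at least 1 were tested on log2(value + 1) with limma 3.58.1 in R 4.3.3 (trend, two-sided, Benjamini-Hochberg adjustment, threshold 0.05). Fold changes on this scale understate those of low genes. Alternatives were other pseudocounts, filters, scalings and variance models, sample weights, edgeR 4.0.16 (quasi-likelihood) and DESeq2 1.42.0 on the recovered reads, and libraries left out. The 9 members, the 21 gene lists and the rule for named genes were chosen with earlier results of these data known. The result of 1 list is not reported here. Named were the members, their relatives with a mean of at least 1, the 2 genes of each list with the smallest p and its most abundant one, and the 3 genes most like Scgb1a1, Bpifa1 and Retnla; others given with values (Ltf and the ligands and marker genes at low levels among them) were chosen after their values were seen, and not every gene the rule allows is reported. Promoters are from RefSeq, for 6 of the 9 members, and positions and 50-base words are from GENCODE M21. Scgb3a2, on chromosome 18, was left out of the promoter search, and no window was listed for Scgb1a1 or Muc5b. In simulated counts of 14130 genes, the same limma fit found 27% of the genes given a log2 change of 1, found 92.8% of the genes given 2, and made 14 false calls. The simulated counts were drawn gene by gene from a mean profile shared by all libraries. No simulated library stood apart and no variation was shared between genes, so these recoveries may not hold for the real libraries.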

Additional observations from a re-analysis of the deposited data

How the results depend on the processing

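Limma on 6 libraries called 0 of 14159 genes (930 at an unadjusted p under 0.05), and edgeR called 0. The count was 11 with DESeq2, 1050 with sample weights and 25 without the 2 libraries that stood apart, and 0 to 2 with 1 library left out. Of the 9 members 2 did not overlap between groups. The number was 1 after quantile normalization and 2 to 4 with 1 library left out: without WT EV replicate 3 Scgb1a1 and Scgb3a2 joined (18.8% of all tested genes did not overlap there), and without WT EV replicate 2 Bpifa1 and Reg3g were lower in all (22.1%). Without both libraries that stood apart it was 4 (42.3%). Of 171 alternative log2 folds of members, 14 reversed. Bpifb1 went from 0.06 to -0.68 with sample weights, -0.60 with edgeR, -0.59 with DESeq2, -1.32 without both libraries and -1.25 to 0.97 with 1 library left out (lowest without WT EV replicate 2, also below 0 at -0.40 for Tsc1-null EV replicate 2 and -0.00021 for replicate 1). Muc5b went from 0.16 to -0.10 with sample weights, -0.41 without both libraries and -0.16 to 0.79 with 1 library left out (below 0 for WT EV replicates 1 and 2, at -0.04 and -0.08, and for Tsc1-null EV replicates 1 and 2, at -0.16 and -0.14). Reg3g, at -0.61, ran from -1.91 to 0.20 with 1 library left out, the highest without WT EV replicate 3. The cause was not tested, other than that fewer libraries entered. Quantile normalization gives Scgb1a1, first in every library, the same value in all, so its fold there is 0 by construction. The Scgb1a1 share difference kept its sign in the 10 alternatives run, from 0.38 to 2.14 points. Of 162 alternative list medians 4 moved by more than the spread between replicates. No paired analysis was possible because the groups share no replicate number in the labels. Bpifa1, Bpifb1 and Reg3g rest on 7 to 17 reads in their lowest libraries, where small values are imprecise.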

Other observations

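Lists for mucin assembly, granule release and the Notch pathway had median log2 folds between 0.01 and 0.09, against -0.02 over all tested genes. For secretory granule release and ion transport 20 of 22 genes were tested, 14 above 0 and 6 below, with a median log2 fold of 0.06. Scnn1b, a subunit of the epithelial sodium channel that Bpifa1 is known to regulate, stood at 117.9, 98.5 and 105.1 CPM with WT EV and at 225.5, 134.4 and 135.7 with Tsc1-null EV, higher in all 3. Rab3d, a GTPase of secretory granules, stood at 78.4 ± 6.81 and 94.0 ± 2.61 (SD, n = 3 each), also higher in all 3. For mucin glycosylation and assembly 13 of 17 were tested, 9 above 0 and 4 below, with a median of 0.09. For the Notch pathway, which sets club against ciliated fate, 16 genes were tested, 9 above 0 and 7 below, with a median of 0.01. Hey1, a Notch target, was lower in all 3 lungs at 120.9 ± 13.0 and 93.2 ± 9.67 and Nrarp, another Notch target, higher in all 3 at 74.2 ± 15.6 and 100.5 ± 18.9. Limma called 0 genes in these lists, as in the whole table.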
